A study of Mus musculus with 4 samples.

Results

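Isl1 chromatin immunoprecipitation with sequencing (ChIP-seq), an assay of the DNA sites that a protein occupies, was examined at 6 long genes: Smyd3, Rad51b, Adk, Macrod2, Arhgap15 and Kcnma1. They were chosen by their high numbers of Isl1 regions in these same data, from genes outside the developmental pathways, and are 6 of 21887 protein-coding genes in the RefSeq table of the mouse genome. The samples were 2 Isl1 ChIP libraries, replicates 1 and 2, from embryonic genital tubercles of wild-type CD1 mice at E14.5 (E for embryonic day), precipitated with a rabbit monoclonal antibody to ISL1. The series also had 2 input DNA samples of the same tissue, strain, age and genotype without antibody, not analysed here. All samples were wild type, so there was no group without Isl1 to set the regions against. The labels do not say whether the replicates came from separate embryos or pools, and a tubercle holds several cell types, so a region cannot be given to one of them. All positions are in mm10.

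Isl1 is a transcription factor with LIM domains, which bind partner proteins, and a homeodomain, which recognises short DNA elements around a TAAT core. In the genital tubercle, the bud from which the external genitalia grow, it is present in the mesenchyme. Factors of this kind often bind far from promoters, and elements inside a long gene can act on that gene, on a neighbour or on none that is known, so a region inside a gene does not by itself name its target. The 6 genes encode unrelated proteins. Smyd3 is a lysine methyltransferase with SET and MYND domains. Rad51b works in DNA repair by homologous recombination. Adk is adenosine kinase, which turns adenosine into AMP. Macrod2 is a macrodomain enzyme that removes ADP-ribose from proteins. Arhgap15 is a GTPase-activating protein for Rac. Kcnma1 is the pore-forming subunit of the large-conductance calcium-activated potassium (BK) channel.

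Each peak list gives a position and a whole-number score per peak, which is the authors' own value. It is used here to describe peaks, to rank shared regions by the lower of their 2 scores, and to set the replicates side by side. How the score was computed is not stated, so the scores of the lists may not be on one scale. Replicate 1 had 8860 peaks and replicate 2 had 10162. Peaks of the replicates that overlapped by at least 1 bp were joined into a shared region, which gave 6834 regions, each placed by its midpoint. Read totals are not in the files, so the depth of either library is unknown. Because the counts chose the genes, all counts below are a description, and no p-value was computed for any of them.

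The 6 genes together held 72 shared regions inside their annotated spans, and 108 when 500 kb on either side was added. Smyd3 held 17 peaks in replicate 1 and 21 in replicate 2, which formed 16 shared regions. Adk held 16 and 17 peaks and 14 shared regions. Rad51b held 13 and 19 peaks and 11 shared regions. The replicates placed similar numbers in Adk, whereas replicate 2 had the higher number at Rad51b. Macrod2 held 14 and 19 peaks and 11 shared regions. Arhgap15 held 12 and 15 peaks and 11 shared regions. Kcnma1 held 11 and 14 peaks and 9 shared regions, the lowest of the 6. Replicate 2 thus had more peaks than replicate 1 in each of the 6 genes, as it had over the whole list.

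**Figure D1:**
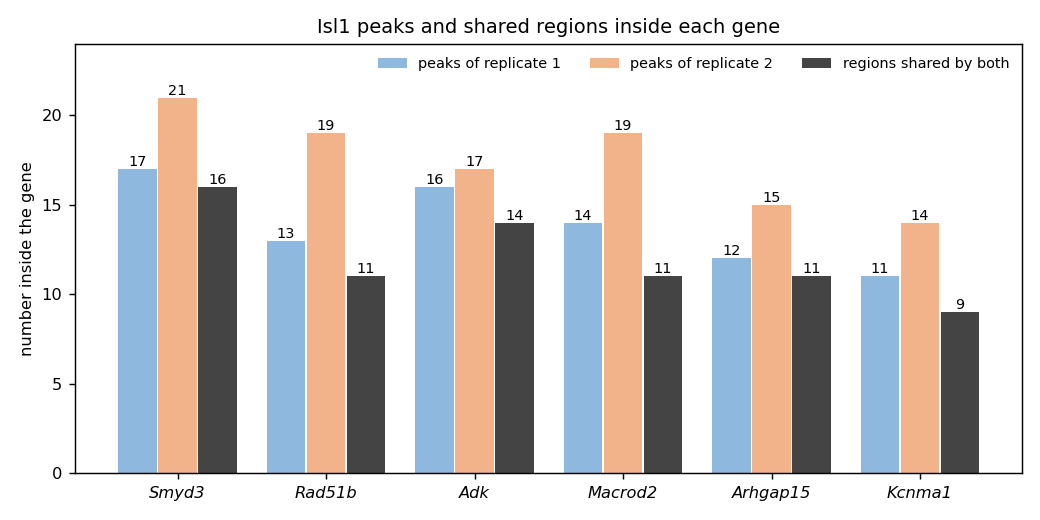
Numbers of Isl1 peaks in replicate 1 (blue bars), in replicate 2 (orange bars) and of regions shared by both (dark bars) inside each gene. Shared regions range from 9 in Kcnma1 to 16 in Smyd3, and replicate 2 has more peaks than replicate 1 in each gene.

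At least 9 shared regions lay inside 16 of the 21887 protein-coding genes (0.0731%), and the 6 genes are among those 16 by the way they were chosen. By shared regions, Smyd3 ranked 3 among all genes, and Adk was at rank 4, tied with a gene outside the 6. Rad51b, Macrod2 and Arhgap15 tied at rank 9, and Kcnma1 was at rank 14. Just at the edge, Arid5b and Palld had 9 regions like Kcnma1, while Auts2, Hpse2 and Phldb2 had 8. By the peaks of one list alone the order of the 6 changed. Smyd3 was at rank 4 in replicate 1 and rank 2 in replicate 2, and Rad51b at rank 10 in replicate 1 and rank 4 in replicate 2.

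The genes differ in length, so regions were also counted per Mb. The 6 genes span 396 kb (Adk) to 1998 kb (Macrod2) and 4.87 Mb in all, which is 0.472% of the sequence covered by protein-coding genes. They held 72 of the 2923 shared regions that lay inside protein-coding genes. This was 1.05% of all 6834 shared regions, which include those outside genes. Inside the 6 genes lay 14.8 shared regions per Mb, against 2.78 per Mb over the other protein-coding genes and 6 per Mb in the 500 kb flanks of the 6. Adk was the densest with 35.4 regions per Mb, followed by Smyd3 with 28.3, Rad51b with 20.0, Arhgap15 with 17.0, Kcnma1 with 12.6 and Macrod2 with 5.51. Among the 2429 protein-coding genes of at least 100 kb, of which 958 held a shared region, Adk ranked 10 and Smyd3 19 by density, Rad51b 52, Arhgap15 85 and Kcnma1 164. Macrod2 ranked 576, below the 90th percentile of 9.58 regions per Mb, which the other 5 exceeded, though above the 2.78 per Mb of the other protein-coding genes.

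**Figure D2:**
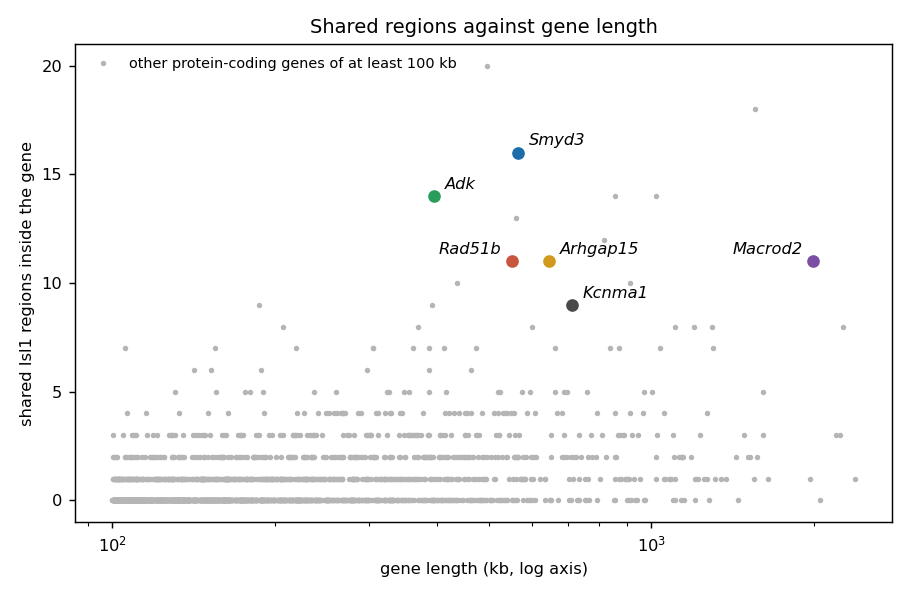
Shared Isl1 regions inside a gene (vertical axis) against gene length in kb (horizontal, log axis) for protein-coding genes of at least 100 kb, with the 6 genes in colour and the others in grey. Adk and Smyd3 reach 14 and 16 regions at 396 and 566 kb, while Macrod2 reaches 11 at 1998 kb.

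Smyd3 (gene ID 69726) lies on chromosome 1 from 178951960 to 179518053. Its 16 shared regions fell into groups with a wide stretch between them that held no shared region. With regions less than 50 kb apart counted as one group, the largest held 9 regions within 87.7 kb (midpoints 179060399 to 179148146), and the widest gap between neighbouring shared regions was 229 kb, in which replicate 2 alone had a peak with a score of 80. That group holds the strongest region of all 6 genes by the lower score, chr1:179147013-179147555. It scored 961 in replicate 1 and 854 in replicate 2 and ranked 60 of 6834. A second region beside it, chr1:179147932-179148342, scored 574 and 646, and another of the group, chr1:179061837-179062117, scored 386 and 612. By replicate 2 alone, the highest score in the 6 genes was 1051, in Adk. Over the 16 regions of Smyd3 the replicate 1 score ran from 31 to 961 with a median of 157. The replicate 2 score ran from 53 to 854 with a median of 218. Replicate 1 had 1 further peak in the gene that was not shared, with a score of 56, and replicate 2 had 5, with scores of 33 to 80.

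Adk (gene ID 11534) lies on chromosome 14 from 21052574 to 21448569. Its regions were the closest together, with a median of 7.39 kb between neighbouring midpoints and 7 regions within 52.8 kb (midpoints 21142044 to 21194830). Its strongest region, chr14:21284941-21285657, scored 726 and 1051 in replicates 1 and 2 and lay outside that group. By the 50 kb limit it fell in another of 3 groups, with midpoints from 21285311 to 21356471. Within the group of 7, chr14:21158729-21159351 scored 539 and 715 and chr14:21150360-21150881 scored 530 and 633. The median score over the 14 regions was 171 in replicate 1 (67 to 726) and 249 in replicate 2 (55 to 1051). Replicate 1 alone had 2 peaks (scores 39 and 66) and replicate 2 alone had 3 (48 to 75).

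Adk also had a peak at an annotated promoter. RefSeq promoter windows, from 250 bases before to 50 after a start site, matched Rad51b, Adk, Macrod2, Arhgap15 and Kcnma1 (9 windows), and 1 of the 9, at the first start of Adk, overlapped a peak of either list. The shared region there, chr14:21052104-21052479, scored 113 and 70 in replicates 1 and 2, which is weaker than most of the regions inside the gene. Its midpoint lies 0.234 kb outside the gene, and inside the gene Ap3m1, a subunit of an adaptor complex for vesicle transport, whose end is 0.021 kb from that of Adk. Among the 101 promoter windows within 500 kb of the 6 genes, 6 overlapped a shared region: those of Adk and Ap3m1, of Ndst2 (heparan sulfate modification), of Vti1b (vesicle fusion), and of Esf1 and Ndufaf5, which share one region. These windows are printed because they are the stretches of Isl1-bound DNA around the 6 genes for which sequence was at hand. The Ap3m1 and Esf1 windows lie on the opposite strand over much of the same DNA as those of Adk and Ndufaf5 and are not repeated. Sequences are those of RefSeq (GRCm38.p6, the assembly of mm10), 5′ to 3′ on the strand of the gene. Capitals mark the bases covered by peaks of both replicates.

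Adk, chr14:21052324-21052623, plus strand: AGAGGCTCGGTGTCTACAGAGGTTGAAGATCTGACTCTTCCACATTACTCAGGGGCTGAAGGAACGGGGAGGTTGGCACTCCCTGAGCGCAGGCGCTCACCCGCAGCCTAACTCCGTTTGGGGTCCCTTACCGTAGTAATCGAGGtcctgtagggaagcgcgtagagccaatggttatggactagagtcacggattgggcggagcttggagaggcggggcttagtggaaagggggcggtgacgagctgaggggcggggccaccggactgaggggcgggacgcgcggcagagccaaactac

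Ndst2, chr14:20734513-20734812, minus strand: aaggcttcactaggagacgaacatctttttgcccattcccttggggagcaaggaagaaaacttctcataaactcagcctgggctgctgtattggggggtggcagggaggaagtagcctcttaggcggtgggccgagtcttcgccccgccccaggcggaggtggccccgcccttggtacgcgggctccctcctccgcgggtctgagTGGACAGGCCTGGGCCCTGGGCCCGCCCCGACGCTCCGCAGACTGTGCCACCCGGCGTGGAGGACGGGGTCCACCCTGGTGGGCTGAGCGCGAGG

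Vti1b, chr12:79172409-79172708, minus strand: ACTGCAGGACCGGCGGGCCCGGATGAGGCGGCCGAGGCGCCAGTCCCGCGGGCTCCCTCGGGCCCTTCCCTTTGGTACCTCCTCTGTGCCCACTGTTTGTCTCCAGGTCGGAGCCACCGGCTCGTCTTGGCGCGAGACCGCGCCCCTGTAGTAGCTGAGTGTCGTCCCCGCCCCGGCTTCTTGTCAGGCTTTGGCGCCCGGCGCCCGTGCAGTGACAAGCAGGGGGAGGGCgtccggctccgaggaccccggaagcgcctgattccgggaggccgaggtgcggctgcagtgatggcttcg

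Ndufaf5, chr2:140170396-140170695, plus strand: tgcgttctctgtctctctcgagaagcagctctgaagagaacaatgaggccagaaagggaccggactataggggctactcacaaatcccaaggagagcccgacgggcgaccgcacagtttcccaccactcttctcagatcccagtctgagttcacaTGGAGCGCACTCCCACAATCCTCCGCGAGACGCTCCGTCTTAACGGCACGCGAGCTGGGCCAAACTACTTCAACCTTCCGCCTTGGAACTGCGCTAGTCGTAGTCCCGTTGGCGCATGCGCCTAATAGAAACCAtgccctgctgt

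The region at Ndst2 was the strongest of these, with scores of 947 and 515 in replicates 1 and 2, and lies 318 kb from Adk. The region at Vti1b scored 121 and 194 and lies 125 kb from Rad51b, and that at Ndufaf5 scored 176 and 98 and lies 225 kb from Macrod2. The windows were rich in G and C, with 61.7% in that of Adk, 66.7% in Ndst2, 71.0% in Vti1b and 57.0% in Ndufaf5, against a median of 52.7% over all 32851 windows. The homeodomain elements TAATTA and TAATGG, searched on both strands, were in none of the 6 windows, and 5.29% and 7.73% of all windows hold them. No other homeodomain element was searched. The shorter TAAT core does occur within the capitals of the Adk and Ndufaf5 windows printed above. How many of all windows hold that core was not counted. The GGGCGG element, also on both strands, was in 4 of the 6 windows (35.7% of all windows) and within the capitals in those of Ndst2 and Vti1b. The CCAAT element was in 3 of the 6 (37.4% of all windows) and in none of the capitals. The counts of 4 and 3 both include the windows of Adk and Ap3m1, which cover much of the same DNA. TAATTA was in both Rad51b windows, where neither list had a peak. These matches are a description of letters in the windows and say nothing of which protein binds them.

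Rad51b (gene ID 19363) lies on chromosome 12 from 79297282 to 79848260. Its 11 regions were spread more evenly than those of Smyd3, Adk or Kcnma1, with 71.2 kb as the widest gap and 8 of them within 150 kb (midpoints 79441967 to 79592187). Their scores were low: the median was 76 in replicate 1 (32 to 155) and 75 in replicate 2 (31 to 299), against 107 and 127 over all shared regions. The strongest, chr12:79507067-79507579, scored 155 and 299. Replicate 2 alone had 8 further peaks, with scores of 47 to 99, and replicate 1 alone had 2, with scores of 32 and 46. Outside the gene, a region with a higher score in replicate 1 but not in replicate 2, chr12:79944791-79944977, scored 253 and 291. It lies between Rad51b and Zfp36l1, which encodes an RNA-binding protein of mRNA decay and had no shared region inside it.

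Macrod2 (gene ID 72899) lies on chromosome 2 from 140395303 to 142392966, and Flrt3, a membrane protein of cell adhesion and Fgf signalling, sits inside it without a region of its own. The 11 regions of Macrod2 were far apart, with a median of 146 kb between neighbours and 8 groups at the 50 kb limit. Their median score was 76 in replicate 1 (31 to 227) and 103 in replicate 2 (27 to 283). The strongest, chr2:142024495-142025247, scored 227 and 283 and was also the widest region in the 6 genes at 753 bp. The region nearest to Flrt3 was 48.1 kb from it. Replicate 2 alone had 8 peaks in Macrod2, with scores up to 154, and replicate 1 alone had 2, with scores of 46 and 93.

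Arhgap15 (gene ID 76117) lies on chromosome 2 from 43748798 to 44395953. Its 11 regions had a narrow range of scores, with a median of 85 in replicate 1 (52 to 206) and 86 in replicate 2 (40 to 170), and none reached the top 10% of all shared regions by the lower score. The strongest by the lower score, chr2:43915691-43916113, scored 166 and 125. Neighbours in the gene were a median of 23.2 kb apart, and 4 of the 11 lay within 37.1 kb. In its flanks were 2 regions, both in Gtdc1, a glycosyltransferase-like gene, of which chr2:44719028-44719459 scored 232 and 223.

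Kcnma1 (gene ID 16531) lies on chromosome 14 from 23292288 to 24005110 and is read from the minus strand. Of its 9 regions, 8 lay beyond the midpoint of the gene as counted from its start, 5 of them within 41.8 kb, and a gap of 251 kb set the remaining one apart. The strongest, chr14:23494007-23494441, scored 371 in replicate 1 and 396 in replicate 2. The median score was 90 in replicate 1 (32 to 371) and 148 in replicate 2 (108 to 396). Replicate 2 had the higher score at 8 of the 9 regions. The strongest region of any of the windows lay 235 kb outside Kcnma1, chr14:23057514-23057968, which scored 1182 and 1068, ranked 21 of 6834, and sits just beyond the end of Lrmda, a gene that held 7 shared regions.

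**Figure D3:**
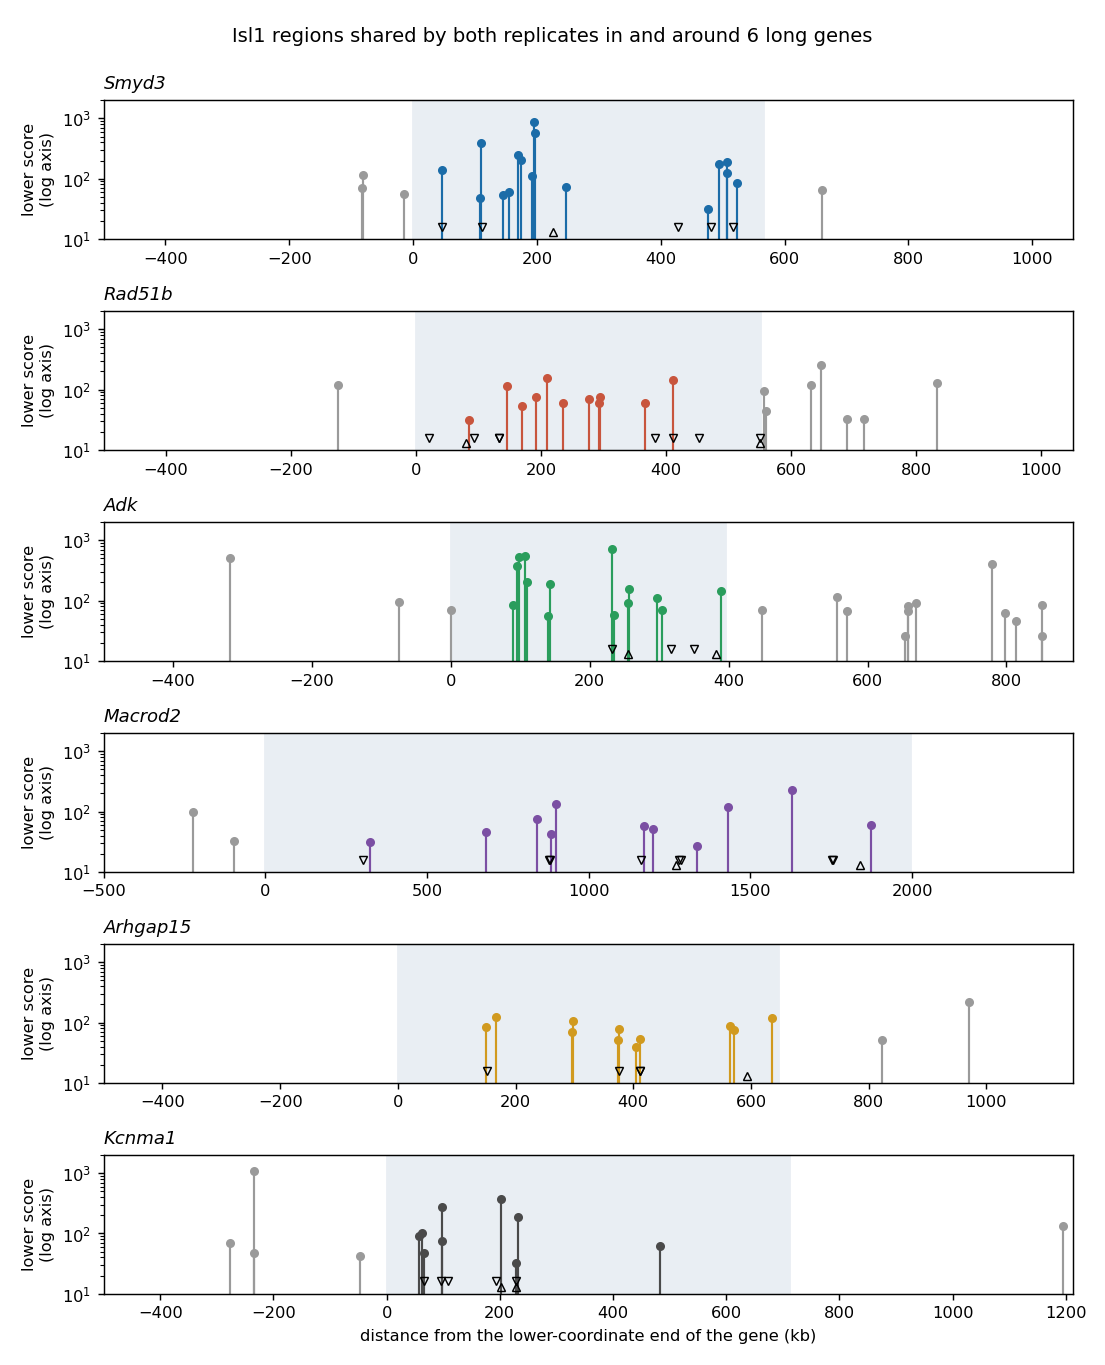
Shared Isl1 regions in each gene (shaded span, coloured) and in 500 kb on either side (grey), by distance in kb from the lower-coordinate end of the gene. Height is the lower of the 2 replicate scores (log axis), and open triangles near the baseline mark peaks inside the gene in replicate 1 alone (pointing up) or replicate 2 alone (pointing down); Smyd3, Adk and Kcnma1 show groups of close regions, Macrod2 shows regions far apart.

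The 6 genes are long, so little of their sequence lies within 1 kb of their own ends, and few regions could fall there. None of the 72 regions inside the 6 genes had its midpoint within 1 kb of an end of any protein-coding gene (0 of 72, which allows a share of up to 4.17%), against 932 of all 6834 shared regions (13.6%), a share not matched for gene length. The nearest to any gene end was 6647 bp away, in Adk. With the flanks added, 6 of the 108 regions did, among them the Adk, Ndst2, Vti1b and Ndufaf5 regions and one at each of Vdac2 (scores 554 and 412) and Polr3a (153 and 131), a mitochondrial channel gene and an RNA polymerase subunit gene. Strand and start sites were at hand for 5 of the genes, which held 56 of the 72 regions. The smallest distance from a region inside the gene to a start site of that gene was 65.9 kb in Adk, 84.9 kb in Rad51b, 111 kb in Arhgap15, 229 kb in Kcnma1 and 324 kb in Macrod2. Within 50 kb of a start thus lay 0 of the 56 regions, which allows a share of up to 5.36%. In 285 other protein-coding genes of at least 300 kb, 113 of 770 regions (14.7%) did. Before the midpoint of the gene, counted from its start, lay 23 of the 56 regions and beyond it 33. In the 285 other genes, 43.5% of the 770 regions lay before it. These differences were not tested.

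Neighbouring regions were close in 5 of the genes, as their density implies, and far apart in Macrod2. Over the 6 genes the median distance between neighbouring midpoints in one gene was 21.7 kb (66 distances, 0.426 to 359 kb), against 143 kb between neighbouring shared regions along the chromosomes. Of the 66 distances, 15 were at most 5 kb (22.7%), against 8.10% over all 6813 neighbours. A higher share of close pairs is partly fixed by the choice of genes with many regions. Adk had 5 of the 15 close pairs, Smyd3 4, Kcnma1 3, Arhgap15 2 and Rad51b 1. Macrod2 had no such pair among its 10 distances, whose median of 146 kb is near that along the chromosomes.

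The strength of the regions did not stand out as their number did. The median score inside the 6 genes was 93 in replicate 1 and 117 in replicate 2, against 107 and 127 over all shared regions. Of the 72 regions, 8 (11.1%) were in the top 10% of all shared regions by the lower score, that is at 316 or above, against 692 of 6834 (10.1%). All of these were in 3 of the genes, 4 in Adk, 3 in Smyd3 and 1 in Kcnma1, while Rad51b, Macrod2 and Arhgap15 had none. The lower score had a median of 152 in Adk and 131 in Smyd3, then 90 in Kcnma1, 77 in Arhgap15, 71 in Rad51b and 58 in Macrod2, against 91 over all shared regions. Region width was a median of 283 bp, against 251 bp over all shared regions, and ran from 220 bp in Macrod2 to 397 bp in Kcnma1 by gene median. Scores in replicates 1 and 2 gave a Spearman correlation of 0.72 over the 72 regions and also of 0.72 over all 6834. Regions of one gene share library and neighbourhood and are not independent, so this is a description. Replicate 2 had the higher score at 44 of the 72 regions (61.1%), close to the 58.9% over all shared regions.

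**Figure D4:**
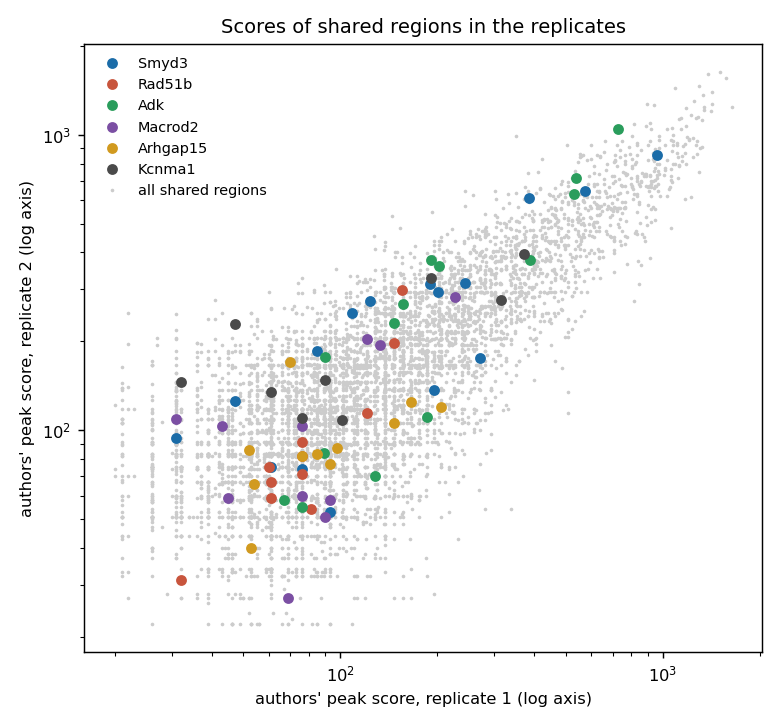
Authors' peak score in replicate 1 (horizontal) and replicate 2 (vertical), both on log axes, for the shared regions inside the 6 genes (coloured) over all shared regions (grey). Regions of Adk and Smyd3 reach scores of 726 and 961 in replicate 1, while the regions of Rad51b, Macrod2 and Arhgap15 stay at or below 227 in replicate 1 and 299 in replicate 2.

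Most peaks inside the 6 genes were found in both replicates. Inside the 6 genes, 73 of 83 replicate 1 peaks were shared (88.0%, Wilson 95% interval 79.2 to 93.3%), against 78.5% over the whole list. Of 105 replicate 2 peaks, 72 were shared (68.6%, 59.2 to 76.7%), against 68.3% over the whole list. The intervals cover counting error alone, and the genes were chosen by shared counts, so a higher share in replicate 1 is partly fixed by that choice. By gene the share of replicate 1 peaks ran from 81.8% in Kcnma1 (52.3 to 94.9%) to 94.1% in Smyd3 (73.0 to 98.95%). The share of replicate 2 peaks ran from 57.9% in Rad51b and Macrod2 (36.3 to 76.9% each) to 82.4% in Adk (59.0 to 93.8%). Whether the genes differ in these shares was not tested. Peaks of one list alone were weak in these genes, as elsewhere: the 10 of replicate 1 had a median score of 47.5 (32 to 93), against 60 over the 1908 of that list, and the 33 of replicate 2 had 54 (32 to 154), against 66 over 3226.

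The flanks differed from gene to gene. Around Adk lay 15 shared regions, including 3 inside Kat6b, a histone acetyltransferase gene, and 3 inside Dupd1, a dual-specificity phosphatase gene. Around Rad51b lay 8, around Kcnma1 5 and around Smyd3 4, of which 2 were inside Kif26b, a kinesin family gene. Macrod2 and Arhgap15 had 2 each. Arhgap15, with 17.0 regions per Mb inside, thus had 2 per Mb in its flanks, while Adk had 35.4 per Mb inside and 15.0 per Mb in its flanks. The region nearest outside the gene was 5.82 kb away for Rad51b, 15.4 kb for Smyd3 and 175 kb for Arhgap15.

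Genes related to Smyd3, Adk, Macrod2, Arhgap15 and Kcnma1 by family or function were examined as lists; together with the list of long genes that follows, 67 of 68 matched the gene table. Most of these relatives are far shorter than the 6. Of the SMYD family, none of 4 (Smyd1, Smyd2, Smyd4 and Smyd5) held a shared region, against 8.32% of all protein-coding genes. Taking 3 counts as the upper limit allows a share of up to 75.0%, but that rule is rough for so few genes. Among adenosine and adenine nucleotide genes 2 of 15 did (Ampd3 and Ak4, 1 each). Among macrodomain and ADP-ribosylation genes 3 of 10 did (Macrod1, Parp1 and Macroh2a1, 1 each). Among Rac-related GTPase-activating genes and Rac genes 3 of 12 did: Chn1 and Abr had 1 each, and Arhgap24, at 698 kb the longest of them, had 5. Among BK and related potassium channel genes 2 of 12 did, Kcnmb2, an accessory BK subunit, and Kcnn2, with 1 each.

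Very long genes known in human cells as common fragile sites made a further list, since Macrod2 has a like size. Of 14 such genes, with a median length of 1529 kb, 11 held a shared region, but together they held 25 regions in 20.8 Mb, or 1.203 per Mb. Over the 2429 protein-coding genes of at least 100 kb, 958 held a shared region, and over all protein-coding genes other than the 6 the density was 2.78 per Mb. Fhit, with 5 regions in 1612 kb, and Wwox, with 4 in 913 kb, had the most. Magi2 and Cntnap2 had 3 each, Ctnna3, Exoc4 and Thsd7a 2 each, and Dlg2, Dmd, Csmd1 and Naaladl2 1 each. Lrp1b, of 2058 kb, had none, with 1 peak in each list.

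The genes most like each of the 6 in their peaks per Mb over the 2 replicates, among other protein-coding genes of at least 100 kb, were shorter. The measure was the distance between log2(1 + peaks per Mb) values of the 2 lists, and a small value means alike. Smyd3, with 30.0 peaks per Mb in replicate 1 and 37.1 in replicate 2, was nearest to Tox (29.5 and 36.0, distance 0.048) and Vgll4 (27.4 and 36.6). Rad51b, with 23.6 and 34.5, was nearest to Cmss1 (23.0 and 32.8) and Hmga2 (26.04 and 34.7). Adk, with 40.4 and 42.9, was nearest to Nxn (42.3 in each) and Rgs22 (38.9 in each). Macrod2, with 7.01 and 9.51, was nearest to Pard3b (6.97 and 9.96), which is itself 1004 kb long, and Ttc28 (7.32 and 9.76). Arhgap15, with 18.5 and 23.2, was nearest to Mcc (18.1 and 23.2) and Lhfp (18.2 and 22.7). Kcnma1, with 15.4 and 19.6, was nearest to Dock10 (15.5 and 19.4) and Limch1 (16.1 and 19.3). With 2 libraries this says only that the densities are close.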

How the data were processed

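The authors deposited 1 peak list per Isl1 ChIP sample, each line holding mm10 coordinates and a whole-number score. The submitters' processing notes name Trimmomatic 0.35, Bowtie2 2.2.6, MACS2 2.1.0.20150731 and bedtools, without order or settings. How the score was computed, the threshold (the lowest score is 20 in both lists) and the use of the input are not stated in the notes or labels. Sites under that threshold are not listed, so the absence of a peak does not show absence of Isl1. Overlaps and counts were computed with Python 3.11.15 and pandas 2.3.3 and checked on simulated peak lists. A shared region joins overlapping peaks of both lists, is placed at the midpoint of its longest overlap, and takes the highest score of each list. Gene spans came from a RefSeq GRCm38.p6 table of gene starts and ends; exon, intron and UTR classes were not used here. The genes named were the 6 members, genes of 6 lists that held a region, neighbours with at least 2 regions, the 2 genes most alike per member and those at the edge of the ranking. Other neighbours, and the grouping distance of 50 kb, were chosen after values were seen. Some related genes are not reported here. Members and lists were chosen with earlier results of these data known. Shares carry Wilson 95% intervals, and upper limits for a count of 0 use 3 counts; both cover counting error alone.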

Additional observations from a re-analysis of the deposited data

How the results depend on the processing

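Of 44 recomputed values for the 6 genes together, 33 stayed within 1.5 times for a count, within the Wilson interval for a share, or within the SD between the replicates otherwise. Of the other 11, 7 came from keeping scores of at least 100 alone: 32 shared regions inside the genes, 43 with the flanks, 97.0% of replicate 1 peaks shared, median scores of 193.5 and 280 in replicates 1 and 2, 6.57 regions per Mb and a median spacing of 37.9 kb. With scores of at least 50, the median replicate 1 score was 115. Taking all peaks of one list in place of shared regions gave 83 to 105 inside the genes, 126 to 158 with the flanks, 17.0 to 21.6 per Mb, a spacing of 13.4 to 20.0 kb, and median scores of 89 in replicate 1 and 86 in replicate 2. Neither list alone gives scores of the other, so those values could not be had. Counts by gene moved by over 1.5 times in 10 of 36 cases. With scores of at least 100, Smyd3 had 10 regions, Adk 9, Kcnma1 4, and Rad51b, Macrod2 and Arhgap15 3 each. With scores of at least 50, Macrod2 had 7. Replicate 2 alone placed 19 peaks in Rad51b, 19 in Macrod2 and 14 in Kcnma1. Reciprocal overlap of at least 50% left 67 regions inside the genes. The tally of 33 of 44 was partly fixed in advance and is a description only. For density and spacing, the SD came from the same 2 single-list values that were then graded by it. A score cut-off tends to lower counts and raise median scores by its nature. No paired analysis was possible because inputs numbered like the ChIP samples have no peak list here. The unknown depth limits how far a peak in one list alone can be read.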
